A study of Drosophila melanogaster with 6 samples.

Results

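Chemoreceptor, odorant-binding and degenerin channel genes are the sensory toolkit of the fly's taste hairs, antennae and touch neurons. They were examined in sorted cells of the larval brain after knockdown of domino (dom), which encodes the nucleosome remodelling ATPase of Tip60. The genes were taken by symbol: gustatory receptors (Gr), their distant relatives (Grl), odorant receptors (Or), ionotropic receptors (Ir), odorant-binding proteins (Obp) and the pickpocket channels (ppk), without ppk13 and without chromosome 4. The annotation held 274 such genes. Of these, 37 were among the 3326 genes that the authors' comparison listed with an adjusted p below 0.05, and 237 were not listed.

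Cells were sorted live by green fluorescence from brains of wandering 3rd instar larvae reared at 25C. All mothers carried UAS::Dcr-2, a transgene for Dicer-2 that strengthens RNA interference, together with insc::Gal4, which is active in neural stem cells (neuroblasts), and the membrane reporter UAS::CD8-GFP, whose GFP persists in part of their progeny. The control ("wild type") had w1118 fathers and the knockdown had fathers with a UAS::dom-RNAi hairpin on w1118, with 3 libraries each. The hairpin came from 1 line, so effects of the knockdown and of differences between the paternal lines cannot be told apart. The labels do not say whether the 3 sorts of a genotype used different larvae, so the spread behind the p-values may be technical. The table held the authors' DESeq2 comparison and no value per library. Overlap of single libraries is therefore unknown, as is read depth, and each ratio below rests on the authors' mean and standard error (SE). Ratios are knockdown over control. Their sign was taken from the column header, which names the control first, and from the target gene dom, at 0.671 times the control level, and the transgene marker w, at 2.50 times, per the authors' deposited table. Dcr-2, which both genotypes carried as a transgene, was itself higher by 0.90 on the log2 scale (SE 0.23, DESeq2 adjusted p 5.36e-04) per the authors' deposited table, and its part in the other ratios was not tested.

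Most of these genes work outside the brain. Or and Ir proteins are ligand-gated channels in the cilia of olfactory neurons, each sensory neuron usually using 1 tuning receptor with a shared co-receptor. Gr proteins detect sugars, bitter compounds and carbon dioxide, Obp proteins are secreted into the fluid that bathes sensory neurons, and ppk channels are sodium channels of the degenerin family with roles in touch, salt taste and pheromone sensing. A few have known uses in the brain, among them the fructose receptor Gr43a.

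In the knockdown 31 of the 37 listed genes were higher and 6 lower, and 27 were at least 2-fold higher and 5 at least 2-fold lower per the authors' deposited table. Their median log2 ratio was 1.5, against -0.20 over all listed genes, of which 49.5% were higher. That last share became 60.8% or 41.2% when all log2 ratios were shifted by 0.1 up or down, while 83.8% of the family genes were higher as deposited and 83.8% and 80.0% after the shifts. No gene from outside the list can enter under a shift, and the upward shift raises the ratios of higher genes. Under the upward shift the count of higher genes could therefore not rise and had little room to fall, so its constancy at 31 says little. Under the downward shift it fell to 24. Genes listed as higher were 13.9% of the 11859 genes behind the authors' adjustment, genes listed as lower 14.2%, listed genes in either direction 28.0%, genes at least 2-fold higher 6.38% and genes at least 2-fold lower 2.02%. The 31 higher genes were 11.3% of the 274 annotated family genes, and the 37 listed genes 13.5%. How many of the 274 were among the tested genes is unknown, so these shares and the background do not have the same denominator. Because the table lists only genes past the threshold, that each listed gene differed follows from its being listed, and the direction and size are what the list adds. For a gene outside the list, which missed the threshold or went untested, no ratio is known.

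**Figure D1:**
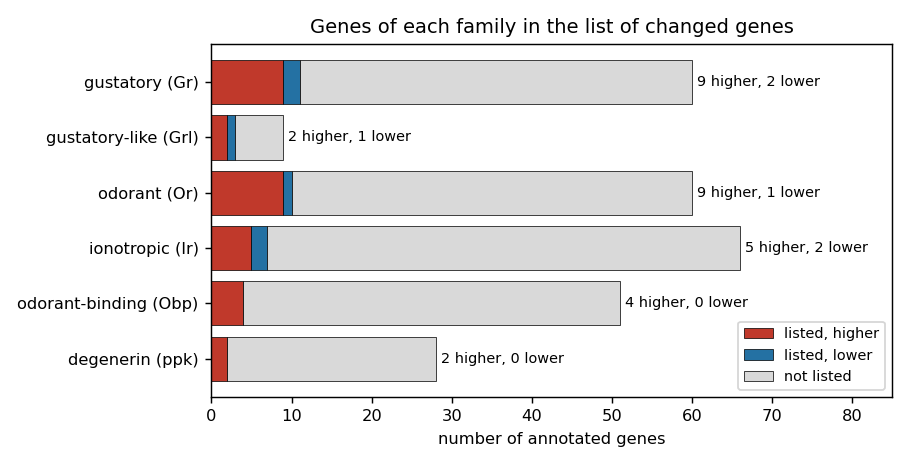
Number of annotated genes in each family (horizontal axis), split into those listed as higher in the dom knockdown, listed as lower, and not listed. The Gr and Or families each had 9 higher genes among 60, and no Obp or ppk gene was listed as lower.

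Listed genes of these families were rare transcripts. Their mean normalized count over all libraries ran from 5.87 to 834 with a median of 41.5, against a median of 1532 over all listed genes per the authors' deposited table. Per kb of exon the median was 24.0 normalized counts for the family genes and 612 for all listed genes. The level in each genotype can be approximated from the mean and the ratio, if the ratio was not shrunken, which the sources used here do not say. On that approximation 19 of the 37 genes had a control level below 20 normalized counts and 12 a control level of at least 50, so a description of these genes as silent in the control held for some and not for others. In whole sorted populations, more cells of a type and more RNA per cell cannot be told apart.

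The gustatory receptors held the largest increases. Of 60 Gr genes 11 were listed, 9 higher (15.0%, beside 13.9% of all tested genes) and 2 lower. The neighbours Gr59d (dm6 2R:23103941-23105169, minus strand) and Gr59c (2R:23102477-23103733, minus strand) had log2 ratios of 6.91 (SE 0.61, DESeq2 adjusted p 2.13e-27) and 5.04 (SE 0.69, adjusted p 1.43e-11) at mean normalized counts of 87.7 and 22.5 per the authors' deposited table. Their 95% intervals, from 5.72 to 8.11 and from 3.68 to 6.39 on the log2 scale, overlapped. Gr59c is used in bitter-sensing taste neurons, and the annotated ends of the pair lie 207 bp apart. Both were in the sparse range: the approximated control level of each was below 20 normalized counts.

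The other increases among Gr genes were smaller and less certain. Gr97a, Gr22a and Gr58c had log2 ratios of 2.49 (SE 0.69, DESeq2 adjusted p 2.01e-03), 2.15 (SE 0.71, adjusted p 0.0118) and 1.81 (SE 0.73, adjusted p 0.0480) per the authors' deposited table, at mean normalized counts of only 7.91, 6.15 and 5.87. Gr59e and Gr63a followed at log2 ratios of 1.43 and 1.31 per the authors' deposited table. Gr63a is one of the pair of receptors that detect carbon dioxide, and its partner Gr21a was not listed. The brain-expressed fructose receptor Gr43a and Gr94a rose least, with log2 ratios of 0.88 (SE 0.35) and 0.87 (SE 0.33) and adjusted p values of 0.0409 and 0.0343 per the authors' deposited table.

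Of the gustatory receptors, 2 fell. Gr61a, a glucose receptor of the sugar-sensing clade and the most abundant listed Gr gene per length at 117 normalized counts per kb of exon, had a mean normalized count of 219 and a log2 ratio of -0.90 (SE 0.30, DESeq2 adjusted p 0.0127) per the authors' deposited table, 0.537 times the control level. Gr32a, which detects bitter compounds and male pheromone, had a mean of 105 and a log2 ratio of -1.16 (SE 0.29, adjusted p 5.11e-04) per the authors' deposited table. The sugar receptors Gr5a and Gr64a to Gr64f and the bitter receptors Gr33a and Gr66a were not listed. Gr64b and Gr64c have the same annotated span, and those of Gr64d and Gr64e overlap, so their reads can be lost in counting.

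Of 9 gustatory receptor-like genes with a number after Grl in the symbol, 3 were listed, in both directions. GrlHz, which has no such number, was left out by the choice of symbols. It was listed as higher (log2 0.54, mean normalized count 487) per the authors' deposited table. Grl40a (2L:22037860-22039772) rose 7.35-fold (log2 2.88, SE 0.59, DESeq2 adjusted p 1.32e-05, mean normalized count 28.6) and Grl43a 2.37-fold (log2 1.24, SE 0.29, adjusted p 1.40e-04, mean 86.3) per the authors' deposited table. Grl36b fell to 0.466 times the control (log2 -1.10, SE 0.22, DESeq2 adjusted p 1.05e-05, mean 116) per the authors' deposited table.

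**Figure D2:**
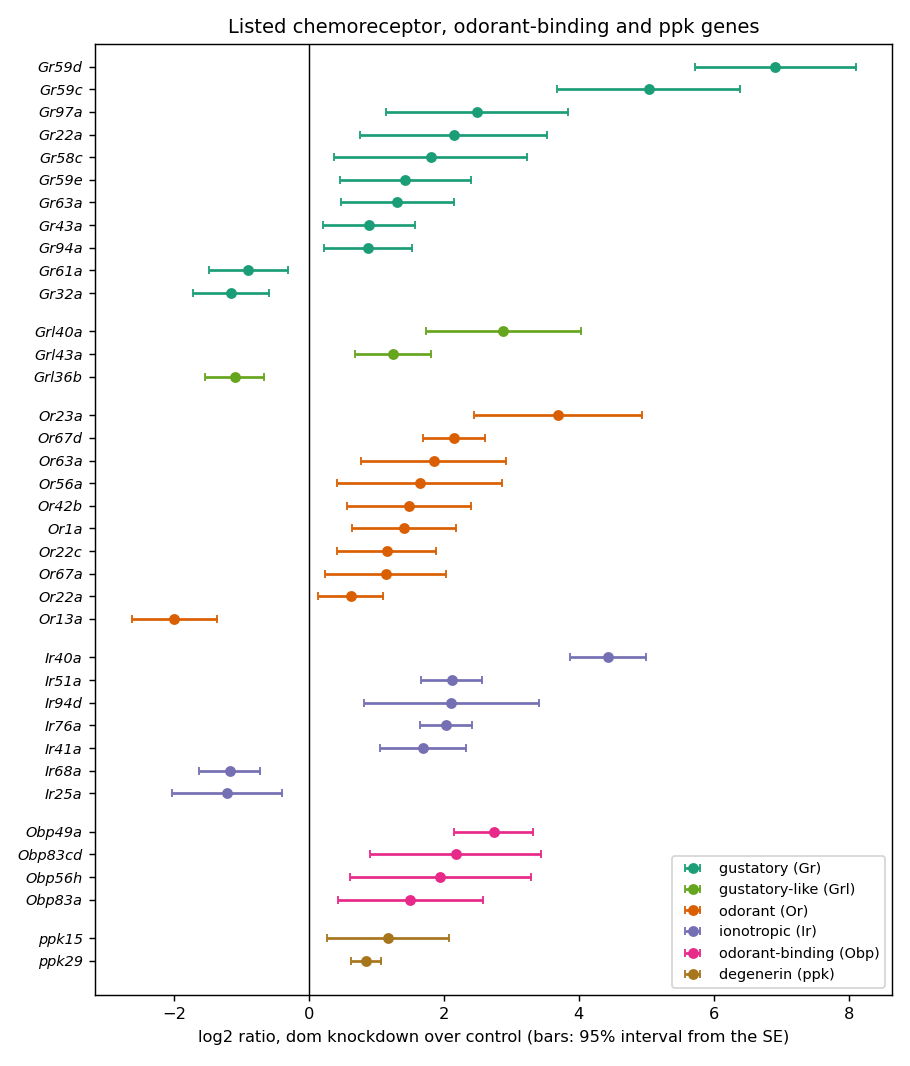
Log2 ratio of knockdown over control (horizontal axis) of each of the 37 listed genes, coloured by family; points are the authors' ratios and bars 95% intervals from the authors' standard error. Gr59d, Gr59c and Ir40a lie farthest to the right, and 6 genes lie to the left of 0.

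Of 60 annotated odorant receptors 10 were listed, 9 of them higher (15.0%), where 13.9% of all tested genes were listed as higher. All listed ones but Or67d had mean normalized counts below 100, where 85.3% of other listed genes were higher. Or23a (2L:2654049-2655462), an adult antennal receptor, rose 12.9-fold (log2 3.69, SE 0.64, DESeq2 adjusted p 1.50e-07, mean normalized count 27.9) per the authors' deposited table. Or67d, the receptor for the male pheromone cis-vaccenyl acetate, had the best supported ratio of the family, with log2 2.15 (SE 0.24, adjusted p 8.35e-18) at a mean of 111 per the authors' deposited table. Receptors used by larval olfactory neurons and receptors of the adult antenna were both among the higher genes. Of the larval type, Or63a, Or42b, Or1a and Or22c rose by 1.85, 1.48, 1.41 and 1.15 on the log2 scale (SE 0.55, 0.47, 0.39 and 0.37) per the authors' deposited table, with DESeq2 adjusted p values of 4.45e-03, 8.58e-03, 2.17e-03 and 0.0102. Or42b serves attraction to vinegar and fruit esters. Their mean normalized counts were 20.7, 19.97, 53.5 and 29.0.

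Of the receptors known from adults, Or56a, which is tuned to the mould odour geosmin, had a log2 ratio of 1.64 (SE 0.63, DESeq2 adjusted p 0.0344, mean normalized count 13.5) per the authors' deposited table. Or67a followed at 1.14 and the fruit ester receptor Or22a at 0.62 (SE 0.25, adjusted p 0.0450) per the authors' deposited table. Or22a has a closely similar tandem copy, Or22b, which was not listed, and reads of such copies can be shared or lost in counting. The single odorant receptor that fell was Or13a (X:15974425-15976706), a receptor for the mushroom alcohol 1-octen-3-ol. It was at 0.251 times the control level (log2 -1.99, SE 0.32, adjusted p 1.98e-08, mean 67.4) per the authors' deposited table, the largest decrease of the 37 genes. The co-receptor Orco, with which all these receptors form channels, was not listed.

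Ionotropic receptors included the change with the smallest error relative to its size. Ir40a (2L:22189526-22214376), part of the receptor for dry air, was 21.6-fold higher per the authors' deposited table, with log2 4.43 (SE 0.29, DESeq2 adjusted p 3.02e-51) at a mean normalized count of 630. This was the smallest adjusted p of the 37 genes, and the approximated levels were 55.9 normalized counts in the control and 1205 in the knockdown. Ir76a (3L:19799278-19803427), an amine receptor of the antenna, was 4.09-fold higher (log2 2.03, SE 0.19, adjusted p 1.37e-23) per the authors' deposited table. Its mean was 834 normalized counts, or 396 per kb of exon, and its approximated control level 328, so it was not near 0 in the control. It shares 14.1% of its exon bases with CG14102 on the opposite strand, itself lower at log2 -0.35 per the authors' deposited table.

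Ir51a, annotated as a pseudogene, Ir94d and Ir41a, a receptor for polyamines, were also higher. Their log2 ratios were 2.11 (SE 0.23, DESeq2 adjusted p 8.42e-18, mean normalized count 137), 2.11 (SE 0.66, adjusted p 7.77e-03, mean 10.03) and 1.69 (SE 0.32, adjusted p 3.13e-06, mean 73.4) per the authors' deposited table. Ir51a and Ir94d had the same ratio to 2 decimals with errors that differed. Of the 7 listed Ir genes out of 66, Ir25a and Ir68a were lower. Ir25a, the broadly used co-receptor that also works with Ir40a and Ir68a, had a log2 ratio of -1.21 (SE 0.42, adjusted p 0.0161, mean 78.1) per the authors' deposited table. Ir68a, the receptor for moist air, had -1.18 (SE 0.23, adjusted p 5.53e-06, mean 137). The humidity receptors thus moved in opposite directions, with Ir40a higher and Ir68a lower, while Ir93a, the further co-receptor of humidity sensing, and the co-receptors Ir8a and Ir76b were not listed.

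All 6 listed genes of secreted odorant-binding proteins and degenerin channels were higher. They were 7.84% of Obp and 7.14% of ppk genes, where 13.9% of all tested genes were listed as higher. All but ppk29 had mean normalized counts below 100, where 85.3% of other listed genes were higher. Of 51 Obp genes 4 were listed, of which Obp49a, which acts in taste hairs where bitter compounds suppress the response to sugar, rose 6.66-fold (log2 2.74, SE 0.30, DESeq2 adjusted p 3.55e-18, mean normalized count 86.8) per the authors' deposited table. Obp83cd, Obp56h and the antennal gene Obp83a had log2 ratios of 2.18 (SE 0.65), 1.95 (SE 0.68) and 1.5 (SE 0.55) at means of 10.6, 14.0 and 18.6 per the authors' deposited table, with DESeq2 adjusted p values of 4.45e-03, 0.0195 and 0.0258. Obp83cd shares 10.2% of its exon bases with the neighbouring Obp83ef. Of 28 ppk genes 2 were listed. ppk29, which works with ppk23 and ppk25 in pheromone sensing, was 1.80-fold higher (log2 0.85, SE 0.11, adjusted p 5.76e-12) at a mean of 797 per the authors' deposited table, or 451 per kb of exon, the highest per length of the 37 genes. It shares 10.7% of its exon bases with CG13563 and the potassium channel gene sei on the opposite strand, whose log2 ratios were 1.02 and -0.42 per the authors' deposited table. ppk15 had a log2 ratio of 1.17 (SE 0.46, adjusted p 0.0406, mean 19.8), and ppk23 and ppk25 were not listed. The counting's strand setting is not given in the sources used here, so reads of genes overlapping on opposite strands cannot be told apart. Of the 37 genes, 7 share exon bases with another gene, 6 of them on the opposite strand. Besides those named, Ir94d shares 24.1% with CG17380, Gr43a 10.2% with Dhx15 and Gr32a 10.1% with CG6230. Or23a shares 5.06% with Prosbeta4R2 on the same strand.

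**Figure D3:**
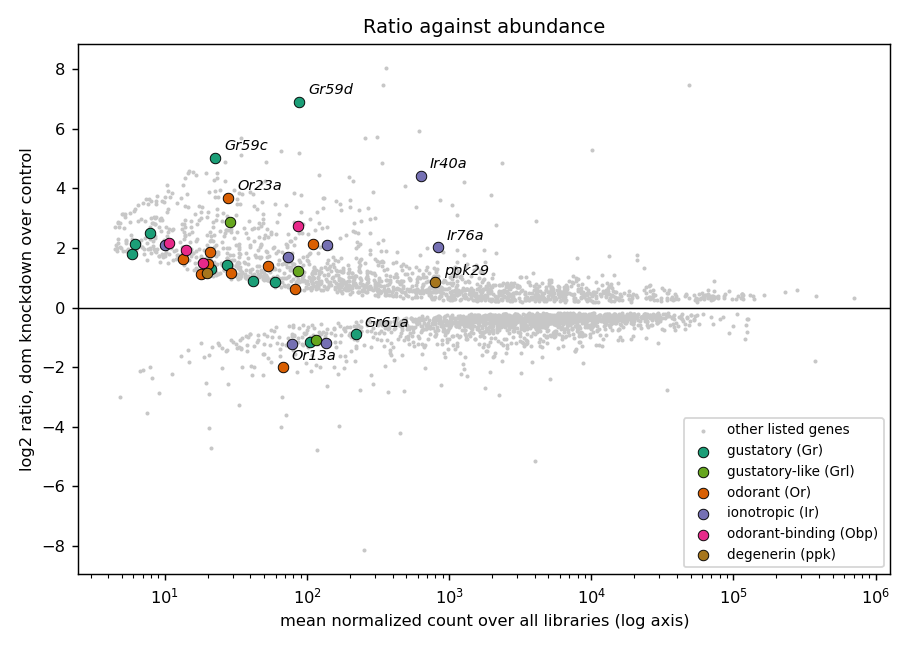
Log2 ratio of knockdown over control against the mean normalized count over all libraries (log axis), with grey points for other listed genes and coloured points for the 37 family genes. Most family genes lie in the cloud of rare, higher genes, while Ir76a, ppk29 and Ir40a lie above a mean of 500.

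The direction of the family genes lay near that of other rare genes in the list. Below a mean normalized count of 100, 26 of 28 family genes were higher (92.9%), beside 555 of 651 other listed genes (85.3%), and the median log2 ratios were 1.57 and 1.67 per the authors' deposited table. The median SE in that range was 0.48 for the family genes and 0.46 for the others per the authors' deposited table. Between 100 and 500, 2 of 6 family genes were higher beside 350 of 501 others (69.9%). At 500 or more, Ir40a, Ir76a and ppk29 were higher, where 710 of 2137 other listed genes (33.2%) were. At least 4-fold increases were found in 32.1% of the family genes and 36.6% of the others below 100, and in 13 of all 37 family genes (35.1%), beside 308 of all 3326 listed genes (9.26%) and 20.2% of other listed genes below a mean of 1000. As a share of annotated family genes the 13 were 4.74%, where genes at least 4-fold higher were 2.60% of all tested genes. These counts describe the list and were not tested against one another.

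**Figure D4:**
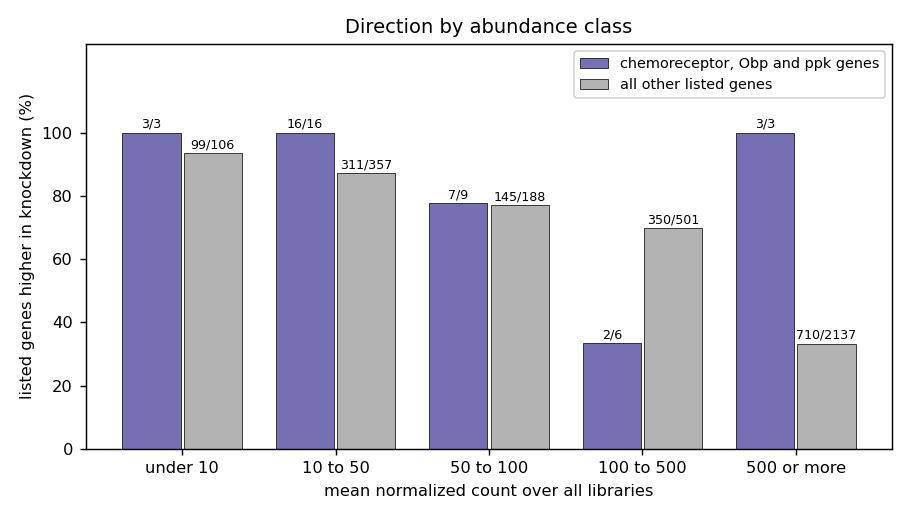
Share of listed genes that were higher in the knockdown (vertical axis, percent) in 5 classes of mean normalized count, for the family genes and for all other listed genes, with the counts above each bar. The shares lie close below 100 and apart above it, where the family genes number 6 and 3.

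At the 13 numbered bands that held a listed Gr, Grl, Or, Ir or Obp gene and at least 1 further gene of the same family name, 18 of 54 genes were listed and 36 were not. Beyond the 1 listed gene that chose each band, 5 of 41 were listed (12.2%), near the 13.5% of all family genes. Gr22a was the only one of 6 Gr22 genes listed, Ir94d the only one of 8 Ir94 genes and Obp56h the only one of 9 Obp56 genes. Gr59c, Gr59d and Gr59e were the 3 listed of 6 Gr59 genes. By chromosome arm, all 13 listed genes on 2R and all 6 on 3R were higher, while 2L had 6 higher and 3 lower, 3L 5 and 2, and X 1 and 1. Other listed genes were higher in 52.4% of cases on 2R and 45.2% on 3R. These shares were not matched for abundance. Below a mean normalized count of 100, 85.3% of other listed genes over all arms were higher.

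Several of these genes shared their direction with listed neighbours. The nearest other listed gene lay within 10 kb of 25 of the 37 genes and shared the direction in 18 of them (72.0%). Gr59c and Gr59d, each the nearest to the other, both count among these. Over all listed genes with a position, 76.3% had such a neighbour, and 63.8% of these shared its direction. Each of the 6 lower family genes had its nearest listed neighbour within 10 kb and lower, where 65.9% of all lower genes with such a neighbour did. Of 44 annotated genes within 10 kb of the 6, 17 were listed, and 15 of these were lower. Most of the 17 had mean normalized counts above 500, where only 33.2% of other listed genes were higher. Beside Or13a, CG42766, 161 bp away on the same strand, had a log2 ratio of -2.0 (SE 0.39) and lncRNA:CR45527 of -2.52 (SE 0.55), near the -1.99 of Or13a itself, per the authors' deposited table. The ciliary gene Cep290, 224 bp from Gr61a, had -1.22 (SE 0.22) and CG42671 beside Ir68a -0.98 (SE 0.09) per the authors' deposited table.

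Of the 13 family genes at least 4-fold higher, 9 had a listed gene within 10 kb, and the nearest was higher for 6 (66.7%), beside 80.8% over all listed genes at least 4-fold higher. Gr59c and Gr59d sat in a run of 6 listed genes on the same strand that were all higher. The other 4 were RpL37-2, a rare copy of a ribosomal protein gene, CG42703, CG9876 and lncRNA:CR44781, with log2 ratios of 4.36, 3.84, 3.51 and 5.13 (SE 0.60 to 0.72) at mean normalized counts of 11.1 to 34.2 per the authors' deposited table. The proximal end of 2L held Ir40a beside CG3635 (log2 7.47, SE 0.45) and Grl40a beside CG31601 (log2 4.45, SE 0.39) and lncRNA:CR46202 (log2 2.94, SE 0.69) per the authors' deposited table. On 2L from 21000000 onward, a position chosen after the values were seen, 39 of 60 listed genes were higher (65.0%) and 27 at least 4-fold, beside 283 of 563 (50.3%) and 52 on the rest of the arm. Those 60 genes had a median mean normalized count of 155, against 1531 on the rest. Of 8 annotated genes within 10 kb of Or23a, 4 were listed, all higher. They were Prosbeta4R1, CG9962, CG33125 and CG43851, at log2 ratios of 2.43, 2.85, 2.67 and 2.67 per the authors' deposited table. Their mean normalized counts were 22.3, 8.28, 42.4 and 5.12. Below a mean of 100, where the run with Gr59c and Gr59d also lay, 85.3% of other listed genes were higher.

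Other higher genes had a lower nearest neighbour. Obp49a, at log2 2.74, lay 1272 bp from CG13148 at -1.20 (SE 0.11) and 9125 bp from wuc at 2.60 (SE 0.33) per the authors' deposited table. Gr97a, at 2.49, lay 444 bp from CG5521 at -0.53 (SE 0.07), and Gr63a, at 1.31, lay 165 bp from Fie at -0.71 (SE 0.18) per the authors' deposited table. Of the 19 higher family genes with a listed gene within 10 kb, the nearest was higher for 12 (63.2%) and lower for 7. Over all higher listed genes with such a neighbour, it was higher for 61.5%. Within 5 kb the nearest was higher for 7 of 13 higher family genes (53.8%), beside 63.3% over all higher listed genes. Or1a, Gr94a and Grl36b lie inside other genes. The host of Or1a, CG3777 on the same strand, was not listed. The host of Grl36b, CG5758 on the opposite strand, was also lower (log2 -0.53), and the host of Gr94a, p53 on the opposite strand, was also higher (log2 0.65) per the authors' deposited table.

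**Figure D5:**
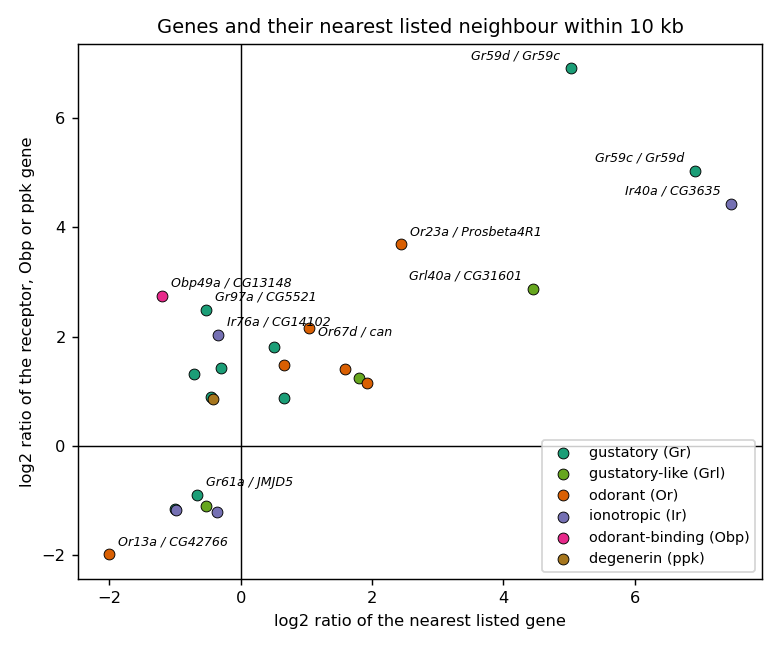
Log2 ratio of each family gene (vertical axis) against that of its nearest listed gene (horizontal axis) for the 25 with one within 10 kb. Gr59c and Gr59d are each other's nearest gene and so appear as 2 mirrored points; the 6 lower genes lie with lower neighbours, and 7 higher genes lie with lower ones.

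Sensory genes of other families were also partly listed, where 28.0% of all tested genes were listed in either direction. Of 17 TRP, Piezo and other sensory channels 4 were listed, all higher: Trpm at log2 0.82 (SE 0.12), the touch channel nompC at 2.54 (SE 0.41), Tmc at 0.61 (SE 0.24) and the heat sensor TrpA1 at 0.76 (SE 0.30) per the authors' deposited table. Their mean normalized counts were 5027, 55.4, 116 and 142. Of 12 genes of rhodopsins and phototransduction, 4 were listed and higher. They were Rh7, a rhodopsin of the brain's clock neurons, at log2 1.76 (SE 0.15), Rh4 at 1.19, Rh2 at 2.53 and Rh5 at 1.30 per the authors' deposited table. The mean normalized counts of these rhodopsins were 623, 126, 13.7 and 28.6. None of 7 co-receptors and transport proteins was listed, with Snmp1, lush and Amt among them, and acj6, pdm3 and onecut, factors of chemosensory neurons, were not listed either. Of 11 factors for such neurons, 10 were found under the planned spelling. Of these, ato and Xbp1 were higher (log2 1.10 and 0.28) and Rx lower (log2 -1.06) per the authors' deposited table. The remaining factor, planned as fer1 and named Fer1 in the list, was also lower (log2 -0.80) per the authors' deposited table. Of 9 genes of sense organ structure, Oseg2, ktub and nompA were higher and nompB and Oseg1 lower, at log2 ratios of 2.21, 0.70, 0.84, -2.62 and -0.29 per the authors' deposited table.

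In 3 lists of chromatin repressors 7 of 28 genes were listed (25.0%), beside 28.0% of all tested genes. In the Myb-MuvB complex and l(3)mbt list, whose complex takes part in the choice of carbon dioxide receptor genes, mip120 was the 1 of 10 genes listed, at log2 0.47 (SE 0.13) per the authors' deposited table. Of 11 Polycomb group genes, E(z) was lower and ph-p higher (log2 -0.30 and 0.22). The heterochromatin list had 4 of 7 genes listed, all lower: Su(var)3-7, Su(var)3-3, wde and G9a, at log2 ratios of -0.37, -0.33, -0.32 and -0.24 per the authors' deposited table. Their mean normalized counts were 10553, 4641, 15903 and 9675, and at 500 or more only 33.2% of other listed genes were higher. Markers of several cell types were listed too, again beside 28.0% of all tested genes. Of 12 neuron markers 7 were listed and lower (median log2 -0.60), of 9 glia markers 4 were listed and higher (median 0.76), of 9 hemocyte markers 4 were listed and lower (median -1.35), and of 9 neuroblast markers 3 were higher and 1 lower per the authors' deposited table. All listed neuron and glia markers had mean normalized counts above 500, where 33.2% of other listed genes were higher. The defining markers elav, brp and dpn were not listed, and the part of the cell type markers in the ratios of the sensory genes was not tested.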

How the data were processed

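Per the labels' protocols, RNA of sorted cells was extracted with TRIzol and made into Illumina TruSeq libraries. Tools named by the submitters' processing notes, with build dm6, were STAR 2.3.0e, HTSeq 0.6.1 and DESeq2, beside FastQC 0.11.2 and SAMtools 0.1.19. For strand setting, annotation and shrinkage the answer is not given in the sources used here. Per the file headers, the authors deposited the mean over libraries of size-factor normalized counts (a signal), a log2 ratio with its SE on the log2 scale, a Wald statistic (a score), a Wald p-value and its adjusted p-value, all without values per library. The table was decoded from UTF-7. All listed genes had an adjusted p of at most 0.0499, and the adjustment implied 11859 tests. No test was refitted: limma would have replaced the deposited test only with values per library.

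Symbols matched 3264 of 3326 IDs; the other 62 were not named, so counts are minimums. Positions came from Ensembl release 115 (BDGP6.54, dm6 coordinates). Intervals are the ratio ± 1.96 SE. Approximated genotype levels solve the mean and ratio for 3 libraries per genotype. Python 3.11.15, pandas 2.3.3, numpy 2.4.6 and scipy 1.17.1 were used, and the functions were tested on simulated data. The members and lists were chosen with earlier results of these data known. All listed members were named, with full statistics for the 5 largest ratios per family and direction and the 3 smallest adjusted p, and up to 3 genes per related list by adjusted p, with further listed genes of 5 or fewer added after their values were seen.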

Additional observations from a re-analysis of the deposited data

How the results depend on the processing

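Counts of family genes moved with the threshold, since many lay near it. Against 37 listed, 31 higher, 6 lower and 27 at least 2-fold higher with a median log2 ratio of 1.5, an adjusted p below 0.01 left 22 listed, 18 higher and 17 at least 2-fold (median 2.07), below 0.001 left 16, 12 and 11 (median 2.07), and Bonferroni over all tests left 14, 11 and 10 with 3 lower (median 2.13). A mean normalized count of at least 50 left 18 listed, 12 higher and 9 at least 2-fold (median 1.06), so the share higher was 66.7% there, against 83.8% over all 37. A mean of at least 10 and leaving out the genes with shared exon bases kept every count within 1.5 times. So did distances of 5 or 20 kb for neighbours and opposite strands alone for shared exon bases. Shifts of all log2 ratios by 0.1 up or down gave 37 or 30 listed genes, with 31 or 24 higher, but genes outside the list cannot enter. Higher counts under the upward and lower counts under the downward shift could therefore not rise and had little room to fall. No paired analysis was possible because the table holds no values per library, although the titles number the replicates. Leaving out single libraries could not be fitted for the same reason, and promoter motifs were not run. Read depth per library is unknown. At means below 10 the median SE was 0.71 for the family genes.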
